A study of Homo sapiens with 12 samples.

Results

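Messenger RNA of 34 genes of glycolysis and the hypoxia response was followed across 12 RNA sequencing libraries of OCI-AML2, a human acute myeloid leukaemia line. The members were the rows of a 55765-gene count table whose symbols stand in a fixed list. They comprise 20 glycolytic and lactate enzymes, 2 pyruvate dehydrogenase kinases, 4 regulators of hypoxia-inducible factor (HIF) and 8 hypoxia targets. The cells were single-cell clones with inducible MEF2C, a MADS-box transcription factor that acts in blood cell development, either as the S222A mutant (serine replaced by alanine) or as wild type (WT). The 4 groups, each of 3 libraries, were S222A induced, S222A uninduced, WT induced and WT uninduced. Per the labels, cells in 3 ml received 600 ng doxycycline (induced) or vehicle (uninduced) for 48 h. How many clones stand behind each construct, and which promoter drives it, is not given in the sources used here. Doxycycline-treated cells without a construct were not analysed here, so an effect of the construct on induction cannot be told apart from an effect of doxycycline. Each construct stood in its own clones, so a difference between the lines cannot be told apart from a difference between clones. The labels do not say whether replicates came from separate cultures. The p-values rest on the spread among these libraries alone, which may be technical.

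Glycolysis converts glucose to pyruvate in the cytosol, and lactate dehydrogenase reduces pyruvate to lactate, which regenerates NAD. When oxygen is low, the prolyl hydroxylases of the EGLN family no longer mark HIF1A for degradation by VHL, and HIF1A with its partner ARNT activates genes whose regulatory regions hold the core ACGTG or GCGTG. Many glycolytic enzymes are HIF targets, and several are also targets of MYC, which binds the E-box CACGTG. HIF1A is controlled largely at the protein level, which RNA counts do not measure. Leukaemia cells commonly run glycolysis at a high rate also when oxygen is present.

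Library totals ranged from 875710 to 13134791 counts. In each group 1 library was far deeper (5412391 to 13134791 counts), and these stood apart from the other 8 (at most 4489036 counts): those 4 libraries are S222A induced replicate 3, S222A uninduced replicate 1, WT induced replicate 1 and WT uninduced replicate 2. The shallowest were WT induced replicate 2, with 875710 counts, and S222A uninduced replicate 3, with 930960 counts. Levels are CPM, read counts scaled to a common library size with TMM factors, and 3 counts corresponded to between 0.239 and 3.36 CPM, a floor that covers counting error only. MEF2C RNA stood at 786 to 956 CPM in the S222A induced libraries and 605 to 802 CPM in the S222A uninduced ones, with overlap (adjusted p = 0.285). In the WT line it stood at 674 to 844 CPM in the induced and 645 to 817 CPM in the uninduced libraries. The groups are therefore those of the labels, and counts per symbol do not separate construct from endogenous MEF2C. The 10 markers listed for myeloid identity summed to 753 to 854 CPM in S222A induced and 666 to 758 CPM in S222A uninduced libraries. In the WT line they summed to 691 to 827 CPM in induced and 652 to 842 CPM in uninduced libraries. Most of each sum was PTPRC, at 516 to 760 CPM. PTPRC is not limited to myeloid cells, so the sum does not mark that lineage. CEBPA had no count and CD34 was close to 0. Of the 7 tested markers of this list, MPO (myeloperoxidase, an enzyme of granulocyte precursors) was called on S222A induction and between the induced lines. Markers of T cells, B cells, erythroid, epithelial, fibroblast and endothelial cells summed to at most 5.2 CPM per list in any library, and HBB, HBA1, ALAS2, EPCAM, KRT18, KRT19 and COL3A1 had no count.

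Of the 34 members, 28 passed the filter on low counts and were tested: 17 enzymes, both pyruvate dehydrogenase kinases, 3 HIF regulators and 6 hypoxia targets. All 11474 genes that passed were fitted together with edgeR's quasi-likelihood test, and every adjusted p below is from that fit (Benjamini-Hochberg over all genes tested) unless another is named. A gene is called at an adjusted p under 0.05. Fold changes are log2 values with their standard error (SE).

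In the S222A line, induction was accompanied by less LDHA RNA and more KDM3A RNA, and no other member was called. LDHA, the lactate dehydrogenase subunit that favours making lactate, fell 1.57-fold. KDM3A, a histone H3K9 demethylase and a classical hypoxia target, rose 1.61-fold. The other enzymes lay mostly below 0 on the log2 scale, and the hypoxia targets lay on both sides. The 2 called members are 7.14% of the 28 tested, beside 4.45% of all genes tested (2.8% higher and 1.66% lower), a share close to the background. Among the 12 fits that left out a library, the LDHA call was kept in 4 and the KDM3A call in 1. In the WT line no member was called on induction, where 0.00872% of all genes were called. The difference of induction effects called no member either, so a difference in response between the lines was not shown.

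Some markers of the myeloid list also differed between the groups. MPO had 0.693, 3.34 and 2.31 CPM in S222A induced, 9.13, 4.92 and 7.67 CPM in S222A uninduced, 10.4, 4.48 and 10.3 CPM in WT induced and 18.2, 19.3 and 15.5 CPM in WT uninduced libraries. On S222A induction it fell by 1.71 (SE 0.42, adjusted p = 0.0377), a call kept in 4 of 12 fits that left out a library (adjusted p 0.032 to 0.203). That call was lost without any of the 6 S222A libraries, without WT induced replicate 3 or WT uninduced replicate 1, without the deepest libraries (adjusted p = 0.234), without the 2 shallowest (0.0586) and with only the groups compared (0.0801). Between the induced lines the MPO log2 fold change was -2.01 (SE 0.41, adjusted p = 0.0124). This call was lost without S222A induced replicate 3 (0.0545), without WT induced replicate 3 (0.0573) and with only the groups compared (0.0551). MPO was also lower, without overlap or call, on WT induction (-0.96, SE 0.37) and in the S222A line before induction (-1.25, SE 0.38, adjusted p = 0.346). KIT, a stem cell factor receptor, had 5.2, 7.58 and 6.78 CPM in S222A induced against 1.8, 1.23 and 0 CPM in S222A uninduced libraries (adjusted p = 0.0869). ITGAM, an integrin of mature myeloid cells, was too low to be tested, with 3.46, 2.45 and 3.19 CPM in S222A induced against 1.2, 0.821 and 0 CPM in S222A uninduced libraries. All 3 markers were without overlap between the S222A groups. So were the listed markers CSF1R, lower in S222A induced cells, and PTPRC, higher. Of all genes tested, 14.4% were non-overlapping and higher there, and 13% were non-overlapping and lower. KIT and ITGAM had no count in S222A uninduced replicate 3, where 3 counts correspond to 3.29 CPM. The part of these shifts in the enzyme and hypoxia values was not tested.

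LDHA is described first because it was called both on S222A induction and between the induced lines. The short stretches below come from its promoter, in the RefSeq table of build GRCh38.p14, and show where the letters of the hypoxia core and the E-box lie. Each is on the + strand, with the E-box CACGTG or, in the last, the reverse complement of a core in capitals. They lie at chr11:18394366-18394395, chr11:18394464-18394493 and chr11:18394477-18394506, which is 185, 87 and 73 bases before the transcription start.
LDHA site 1: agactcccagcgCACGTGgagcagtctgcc
LDHA site 2: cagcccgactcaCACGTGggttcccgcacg
LDHA site 3: acgtgggttcccgCACGTccgccggccccc
Sites 2 and 3 overlap.

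LDHA had 178, 171 and 147 CPM in the S222A induced libraries, against 246, 281 and 250 CPM in the S222A uninduced libraries. WT cells had 288, 322 and 350 CPM in the induced libraries and 370, 290 and 398 CPM in the uninduced ones. Every S222A induced library was below every other library, and the S222A uninduced libraries were below all 6 WT libraries. On S222A induction LDHA fell by 0.65 (SE 0.16, 95% interval -0.99 to -0.30, adjusted p = 0.0382). In S222A induced cells it was 1.94-fold lower than in WT induced cells, a log2 fold change of -0.95 (SE 0.16, interval -1.30 to -0.61, adjusted p = 0.00466). In the uninduced lines the difference was -0.45 (SE 0.16, unadjusted p = 0.015, adjusted p = 0.506), which did not pass. On WT induction it was -0.14 (SE 0.16, interval -0.48 to 0.20). The difference between the S222A and WT induction effects was -0.51 (SE 0.22, adjusted p = 0.731), so a difference in response between the lines was not shown. Leaving out each library in turn kept the call between the induced lines in 12 of 12 fits, with adjusted p between 0.00254 and 0.0301. The call on S222A induction was kept in 4 of 12 fits (adjusted p 0.0261 to 0.143). It was lost without any of the 6 S222A libraries, without WT induced replicate 3 and without WT uninduced replicate 1, and the log2 fold change stayed between -0.70 and -0.57. It was also lost with upper quartile factors (adjusted p = 0.0521), without the filter on low counts (0.121) and without the 2 shallowest libraries (0.0715).

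**Figure D1:**
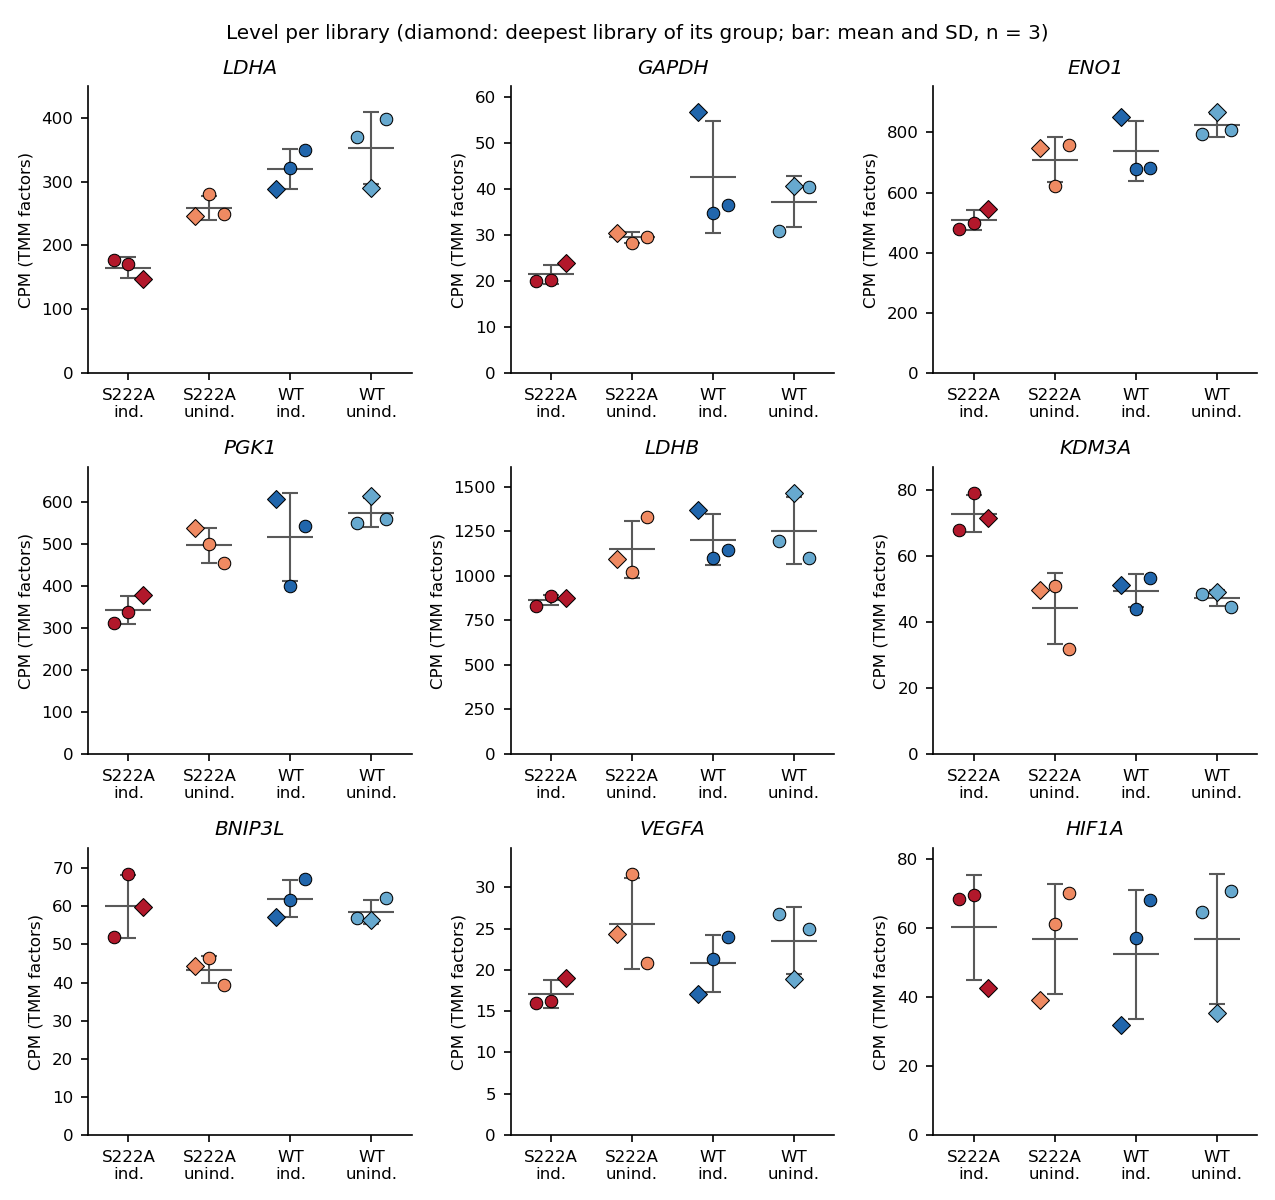
Levels of 9 members in each library, in CPM on a linear axis, with S222A induced, S222A uninduced, WT induced and WT uninduced from left to right; bars are group means with SD (n = 3) and diamonds mark the deepest library of each group. LDHA averaged 165 ± 16.2 CPM in S222A induced and 259 ± 19 CPM in S222A uninduced libraries, and KDM3A 72.7 ± 5.66 CPM in S222A induced and 44 ± 10.7 CPM in S222A uninduced libraries.

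Among the enzymes of the later steps of glycolysis, GAPDH and ENO1 were also called, between the induced lines only. GAPDH oxidises glyceraldehyde 3-phosphate and makes the NADH that lactate dehydrogenase uses. ENO1 is the enolase that makes phosphoenolpyruvate. Both were lower in S222A induced cells. Their promoter stretches in the same table are shown because they are the other called enzymes, with the E-box in capitals for GAPDH and a hypoxia core, read on either strand, for ENO1. They lie at chr12:6535171-6535200 on the + strand, chr1:8878836-8878865 on the - strand and chr1:8878742-8878771 on the - strand, which is 81, 166 and 72 bases before the start.
GAPDH site 1: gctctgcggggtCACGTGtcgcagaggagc
ENO1 site 1: tcacccccctttcCACGCtactgcagccgt
ENO1 site 2: cggagctgaggggGCGTGccccggaggcgg

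GAPDH had 20.1, 20.3 and 23.9 CPM in the S222A induced libraries and 30.5, 28.3 and 29.6 CPM in the S222A uninduced libraries. WT libraries had 56.7, 34.8 and 36.6 CPM in the induced libraries and 30.8, 40.6 and 40.4 CPM in the uninduced ones. The S222A induced libraries were the lowest of the 12, and the WT induced group held 1 library well above its other two. GAPDH was 2.02-fold lower in S222A induced than in WT induced cells (log2 fold change -1.02, SE 0.21, adjusted p = 0.0125). The call was kept in 9 of 12 fits that left out a library. It was lost without S222A induced replicate 1 (adjusted p = 0.0586), without S222A induced replicate 2 (adjusted p = 0.0629) and without WT induced replicate 1, where the log2 fold change was -0.73 (adjusted p = 0.0561). On S222A induction the log2 fold change was -0.45 (SE 0.21, adjusted p = 0.269), not called. The 58 rows of GAPDH pseudogenes held 177 counts over all libraries beside 1727 of GAPDH, and reads shared between such near-identical copies make the GAPDH level uncertain.

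ENO1 had 480, 498 and 547 CPM in the S222A induced libraries and 749, 623 and 757 CPM in the S222A uninduced libraries. For comparison, the WT line had 852, 679 and 681 CPM in the induced libraries and 796, 868 and 807 CPM in the uninduced ones. No S222A induced library reached the level of any other library. Between the induced lines the log2 fold change was -0.54 (SE 0.15, 1.45-fold lower, adjusted p = 0.0492). This call was kept in 1 of 12 fits that left out a library, the one without S222A uninduced replicate 3 (adjusted p = 0.0433). In the other fits adjusted p ranged up to 0.178, and the log2 fold change stayed between -0.61 and -0.42. The call was also lost without the filter on low counts (adjusted p = 0.21), without robust shrinkage (0.051), without the 2 shallowest libraries (0.0529) and with only the groups compared (0.1). On S222A induction ENO1 differed by -0.48 (SE 0.15, adjusted p = 0.0868).

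PGK1, which makes the first ATP of glycolysis, showed like values without being called in the main fit. It had 311, 338 and 380 CPM in the S222A induced libraries, against 539, 499 and 456 CPM in the S222A uninduced libraries. Levels in WT cells were 607, 401 and 542 CPM in the induced and 551, 615 and 560 CPM in the uninduced libraries. Its log2 fold change was -0.54 (SE 0.17, adjusted p = 0.0878) on S222A induction and -0.59 (SE 0.17, adjusted p = 0.0527) between the induced lines. Some other settings called PGK1 between the induced lines, among them upper quartile factors (adjusted p = 0.0431), DESeq2 (0.00842), limma-voom (0.0377) and leaving out the 2 shallowest libraries (0.0179). It stayed uncalled without the filter on low counts and with only the groups compared. LDHB, the lactate dehydrogenase subunit that favours making pyruvate, ranged from 833 to 886 CPM in S222A induced and from 1024 to 1328 CPM in S222A uninduced libraries. Its log2 fold change there was -0.41 (SE 0.16, adjusted p = 0.186). WT cells had 1366, 1097 and 1143 CPM in induced and 1198, 1464 and 1097 CPM in uninduced libraries. Between the induced lines LDHB was lower without overlap, at -0.48 (SE 0.16, adjusted p = 0.107). DESeq2 called LDHB there (adjusted p = 0.0337). An edgeR fit with a term for the deepest libraries called it there (0.00916) and on S222A induction (0.0252).

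Of the 17 tested enzymes, 15 had a log2 fold change below 0 on S222A induction, 88.2% of them beside 49.2% of all genes tested. The median over the enzymes was -0.41, beside 0.01 over all genes tested, and it was -0.23 without S222A uninduced replicate 1. For 6 enzymes the groups had no overlap, TPI1, GAPDH, PGK1, ENO1, LDHA and LDHB, all lower in S222A induced cells, while 13% of all genes were non-overlapping and lower. Enzymes whose S222A groups overlapped included HK1 at -0.47, GPI at -0.43 and PKM at -0.27. PFKL and PGAM1 lay above 0, at 0.04 and 0.05. In the WT line the enzymes also lay below 0 in 15 of 17 cases on induction, beside 48.8% of all genes, with a median of -0.11, and none was non-overlapping, beside 5.79% of all genes.

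The entry and control steps of glycolysis were not called in any comparison. HK2, the inducible hexokinase, had 37.4, 40.6 and 48.7 CPM in the S222A induced libraries, against 69.6, 68.5 and 17.5 CPM in the S222A uninduced libraries. In WT cells it had 91.6, 37 and 55.3 CPM in the induced and 71.2, 74.9 and 45.8 CPM in the uninduced libraries. The groups overlapped, S222A uninduced replicate 3 being the lowest of the 12, and the S222A induction interval ran from -1.23 to 0.50. PFKP, a phosphofructokinase, had 106, 94.3 and 87.4 CPM in S222A induced, 104, 96.4 and 123 CPM in S222A uninduced, 106, 124 and 104 CPM in WT induced and 122, 112 and 120 CPM in WT uninduced libraries. Its S222A induction log2 fold change of -0.16 had an interval from -0.48 to 0.16. PFKFB3, which makes the allosteric activator of phosphofructokinase, had 32.2, 29.2 and 45.3 CPM in S222A induced, 49.7, 34.1 and 30.7 CPM in S222A uninduced, 50.1, 24.7 and 30.5 CPM in WT induced and 26.7, 42.1 and 26.6 CPM in WT uninduced libraries. In each group the deepest library was the highest for PFKFB3.

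PKM, the pyruvate kinase gene, had 239, 215 and 282 CPM in S222A induced, 330, 260 and 295 CPM in S222A uninduced, 305, 259 and 209 CPM in WT induced and 259, 323 and 313 CPM in WT uninduced libraries. The groups overlapped, and the log2 fold change on S222A induction was -0.27 (SE 0.18, adjusted p = 0.469). PDK1, which inhibits pyruvate dehydrogenase and so holds pyruvate back from the mitochondrion, had 43.6, 45.3 and 45.4 CPM in S222A induced, 43.8, 48 and 26.3 CPM in S222A uninduced, 60.7, 51.6 and 65 CPM in WT induced and 46.9, 54.3 and 54.3 CPM in WT uninduced libraries. The induced lines did not overlap for PDK1, lower in S222A cells, with a log2 fold change of -0.41 (SE 0.19, adjusted p = 0.236). PDK3, another kinase of the family, ranged from 5.34 to 13 CPM over all libraries with overlap in each comparison. The remaining tested enzymes, HK1, HK3, GPI, PFKL, PFKM, ALDOA, TPI1 and PGAM1, were not called in any comparison, and HK1 did not overlap between the induced lines, where it was lower in S222A cells.

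KDM3A was the called hypoxia target. Its promoter stretch is shown because KDM3A was called. A hypoxia core, found in 43.1% of all promoter windows, stands in capitals 26 bases before the start, at chr2:86441332-86441361 on the + strand of GRCh38.p14.
KDM3A site 1: tccgggaggctgtGCGTGtcttgtgagagc

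KDM3A had 67.9, 78.9 and 71.3 CPM in the S222A induced libraries, against 49.5, 50.9 and 31.8 CPM in the S222A uninduced libraries. In the WT line it had 51.2, 43.7 and 53.2 CPM in the induced and 48.4, 48.9 and 44.5 CPM in the uninduced libraries. The S222A induced libraries were above every other library, and the other 9 lay within 31.8 to 53.2 CPM. On S222A induction KDM3A rose by 0.69 (SE 0.18, interval 0.30 to 1.07, adjusted p = 0.0460). Set against WT induced cells, its log2 fold change in S222A induced cells was 0.54 (SE 0.18, adjusted p = 0.0885), and the difference of induction effects was 0.61 (SE 0.25, adjusted p = 0.716). The call was kept in 1 of 12 fits that left out a library, without WT induced replicate 1 (adjusted p = 0.0481), and in the other 11 the adjusted p went up to 0.168. S222A uninduced replicate 3, the shallowest library of its group, was the lowest of the 12 for KDM3A and also for HK2, PDK1, EGLN1, BNIP3L and P4HA1. Without it, the KDM3A log2 fold change on induction was 0.54 (adjusted p = 0.0834). The call was also lost without the filter on low counts (adjusted p = 0.09), without the deepest libraries (0.0635), without the 2 shallowest libraries (0.0744) and with only the groups compared (0.0925).

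BNIP3L and BNIP3 encode mitophagy receptors that promote removal of mitochondria. BNIP3L had 52, 68.5 and 59.7 CPM in S222A induced and 44.3, 46.4 and 39.4 CPM in S222A uninduced libraries. WT cells had 57.3, 61.7 and 67.1 CPM in induced and 57, 56.4 and 62.1 CPM in uninduced libraries. The S222A uninduced group was the lowest and did not overlap with any other, and the induced lines overlapped. The log2 fold change was 0.46 (SE 0.16, adjusted p = 0.118) on S222A induction and -0.42 (SE 0.16, adjusted p = 0.528) between the uninduced lines. BNIP3 had 10, 12.7 and 7.33 CPM in S222A induced, 7.33, 14 and 11 CPM in S222A uninduced, 11.5, 19.1 and 15.3 CPM in WT induced and 20.2, 12.4 and 12.3 CPM in WT uninduced libraries, with overlap in each comparison.

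VEGFA, the angiogenic growth factor, had 15.9, 16.3 and 19.1 CPM in S222A induced and 24.4, 31.6 and 20.8 CPM in S222A uninduced libraries. WT libraries had 17.1, 21.3 and 23.9 CPM in induced and 26.7, 18.9 and 24.9 CPM in uninduced libraries. The S222A groups did not overlap, but the log2 fold change of -0.59 (SE 0.22, adjusted p = 0.159) was not called. P4HA1, a collagen prolyl hydroxylase subunit, had 83.8, 76.7 and 87.4 CPM in S222A induced, 98.9, 94.8 and 56.9 CPM in S222A uninduced, 136, 94.2 and 88.7 CPM in WT induced and 90.3, 100 and 95.6 CPM in WT uninduced libraries. Its induced lines did not overlap, narrowly, with a log2 fold change of -0.37 (SE 0.21, adjusted p = 0.34). NDRG1, a stress-responsive gene, had 135, 116 and 176 CPM in S222A induced, 209, 176 and 138 CPM in S222A uninduced, 282, 177 and 168 CPM in WT induced and 179, 240 and 156 CPM in WT uninduced libraries. The deepest library of each group was its highest for NDRG1, and no comparison was called.

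Over the 6 tested hypoxia targets, the median log2 fold change on S222A induction was -0.05, with 4 of 6 below 0, and 1 called higher. The groups did not overlap for KDM3A and BNIP3L, both higher, and for VEGFA, lower, beside 14.4% of all genes higher and 13% lower. Between the induced lines the targets had a median of -0.32, 5 of 6 were below 0 (49.9% of all genes) and none was called. Between the uninduced lines 5 of 6 were also below 0 (49.7% of all genes), with a median of -0.15 and none called. Of the enzymes, 13 of 17 were below 0 between the induced lines (median -0.23). Between the uninduced lines it was 11 of 17 (median -0.14).

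**Figure D2:**
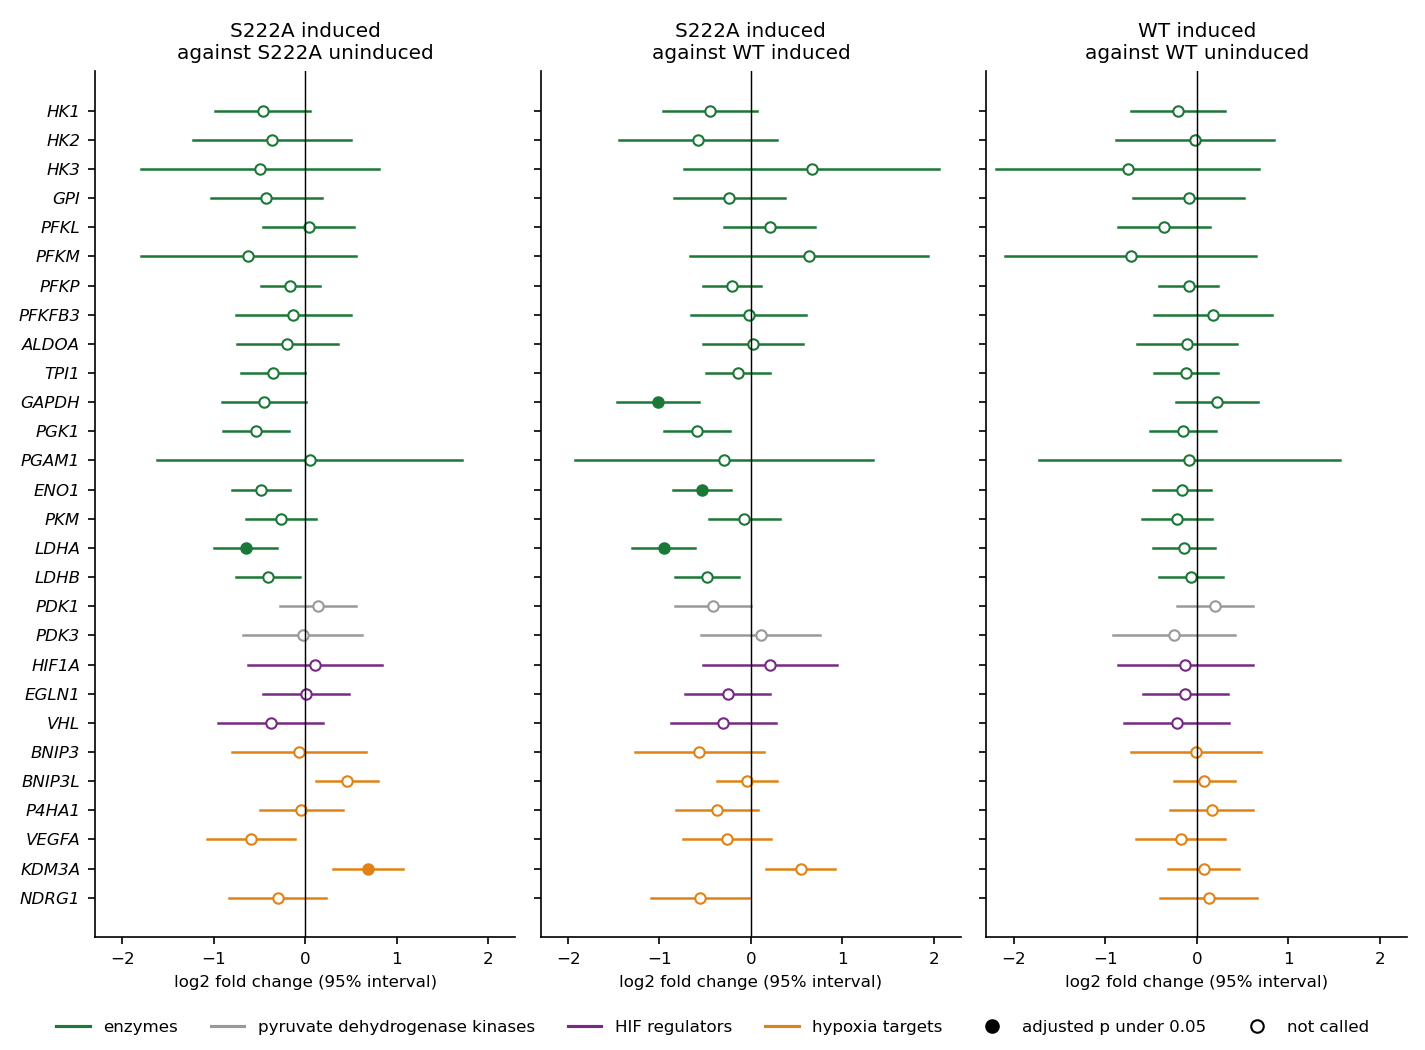
Log2 fold changes of the 28 tested members with 95% intervals, grouped by role, for S222A induced against S222A uninduced, S222A induced against WT induced, and WT induced against WT uninduced. LDHA lies at -0.65, -0.95 and -0.14, and KDM3A at 0.69, 0.54 and 0.08.

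The HIF regulators were not called in any comparison. HIF1A, the oxygen-regulated subunit of HIF, had 68.6, 69.6 and 42.6 CPM in S222A induced, 39.2, 61.2 and 70.1 CPM in S222A uninduced, 31.9, 57.2 and 68.2 CPM in WT induced and 64.6, 35.5 and 70.7 CPM in WT uninduced libraries. In every group the deepest library was the lowest for HIF1A, and the same held for VHL. EGLN1, the main HIF prolyl hydroxylase, had 44, 53.5 and 39.5 CPM in S222A induced, 47.2, 55.4 and 29.6 CPM in S222A uninduced, 53.5, 43.7 and 63.4 CPM in WT induced and 58.5, 55.2 and 64.1 CPM in WT uninduced libraries. VHL, which directs hydroxylated HIF1A to degradation, had 50.9, 43.9 and 33.1 CPM in S222A induced, 40.2, 60.3 and 67.9 CPM in S222A uninduced, 37.9, 59.4 and 61.3 CPM in WT induced and 69.6, 45.2 and 68.2 CPM in WT uninduced libraries. On S222A induction the intervals ran from -0.62 to 0.85 for HIF1A, from -0.46 to 0.48 for EGLN1 and from -0.95 to 0.20 for VHL. Changes within these intervals are not excluded.

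The members that did not pass the filter included several genes that respond strongly to hypoxia in other cells. EGLN3, a prolyl hydroxylase induced by HIF, had 0 to 4 counts per library, ADM (adrenomedullin, a vasodilator peptide) 0 to 5, and ANKRD37 0 to 2. Among the enzymes, ALDOC had 0 to 4 counts, ENO2 0 to 13, and PFKFB4, which like PFKFB3 sets the activator of phosphofructokinase, 0 to 39. PFKFB4 had 8, 14 and 39 counts in S222A induced, 25, 3 and 0 in S222A uninduced, 21, 0 and 8 in WT induced and 9, 10 and 4 in WT uninduced libraries. In CPM, PFKFB4 had 2.77, 3.12 and 3.11 in S222A induced and 3, 1.23 and 0 in S222A uninduced libraries, with overlap. In the WT line it had 3.07, 0 and 2.11 CPM in induced and 4.54, 1.93 and 1.63 CPM in uninduced libraries. The 6 members that did not pass were not tested, so a difference in them was neither shown nor excluded.

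Across the study, the WT induction comparison called 0 of 28 members beside 0.00872% of all genes, with 0 members at an unadjusted p under 0.05 (1.7% of all genes) and 0 called by DESeq2. The difference of induction effects also called 0 members, beside 0.0784% of all genes, and 3 had an unadjusted p under 0.05 (6.68% of all genes): GAPDH, LDHA and KDM3A. DESeq2 called 0 there too. Between the induced lines 3 members, LDHA, GAPDH and ENO1, were called, all lower in S222A cells. That is 10.7% of the members beside 6.34% of all genes, with 2.61% called lower and 3.73% called higher. There 8 members did not overlap and were lower (12.9% of all genes), and KDM3A and HK3 did not overlap and were higher (15.2%). Between the uninduced lines 0 members were called, beside 0.392% of all genes. There 2 members, LDHA and BNIP3L, had an unadjusted p under 0.05 (7.48% of all genes), and DESeq2 called 0. In that comparison GAPDH, PGK1, ENO1, LDHA and BNIP3L did not overlap, all lower in S222A cells, beside 6.1% of all genes. The induction and between-line comparisons share libraries, so their values are not independent.

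Enzymes and hypoxia targets were set side by side in each library, as the median log2 difference from the WT uninduced mean. In the S222A induced libraries the enzymes stood at -0.31, -0.49 and -0.19 and the targets at -0.33, -0.25 and -0.11. In the S222A uninduced libraries the enzymes stood at 0.14, -0.19 and -0.01 and the targets at 0.06, -0.03 and -0.51. The WT induced libraries gave 0.14, -0.26 and -0.18 for the enzymes and 0.04, -0.05 and 0.05 for the targets. In the WT uninduced libraries the enzymes stood at -0.05, 0.13 and -0.13, and the targets between -0.04 and 0.000372. The enzyme medians of S222A induced replicates 1 and 2 were the lowest of the 12, but the mean over the enzymes was lowest in WT induced replicate 2, at -0.49, beside -0.37, -0.47 and -0.21 in the S222A induced libraries. The target median minus the enzyme median was -0.02, 0.24 and 0.08 in S222A induced libraries and -0.08, 0.16 and -0.49 in S222A uninduced libraries. In the WT line it was -0.09, 0.20 and 0.23 in induced and 0.05, -0.13 and 0.09 in uninduced libraries. These ranges overlapped between all groups, so the balance of the 2 roles did not separate them.

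**Figure D3:**
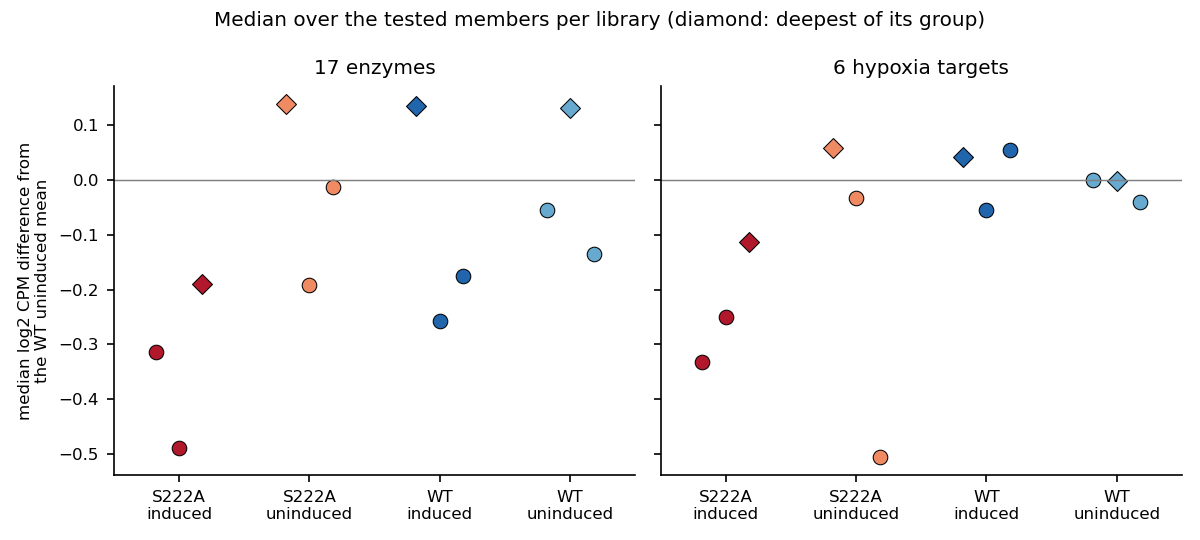
Median log2 CPM difference from the WT uninduced mean for the enzymes (17 genes) and hypoxia targets (6 genes), 1 point per library and role, with groups from S222A induced to WT uninduced and diamonds for the deepest library of a group. The S222A induced enzymes lie between -0.49 and -0.19, and the lowest target point, -0.51, is S222A uninduced replicate 3.

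Depth moved with several members. GPI, PFKFB3, ALDOA and PGAM1 were higher in all 4 deepest libraries than in the other 8, and HIF1A was lower. These are 14.3% of the tested members, beside 7.36% of all genes, and 3.57%, beside 6.39%. For GPI the ranges were 269.7 to 348 CPM in the deepest and 161 to 258 CPM in the others, and for HIF1A 31.9 to 42.6 CPM and 57.2 to 70.7 CPM. LDHA and KDM3A overlapped between the 2 sets of libraries. Within the deepest libraries LDHA differed by -0.74 on S222A induction and within the others by -0.60, and KDM3A by 0.52 and 0.86. The enzyme median was -0.35 and -0.36. HK2 was split, at -0.51 in the deepest and 0.16 in the other libraries.

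**Figure D4:**
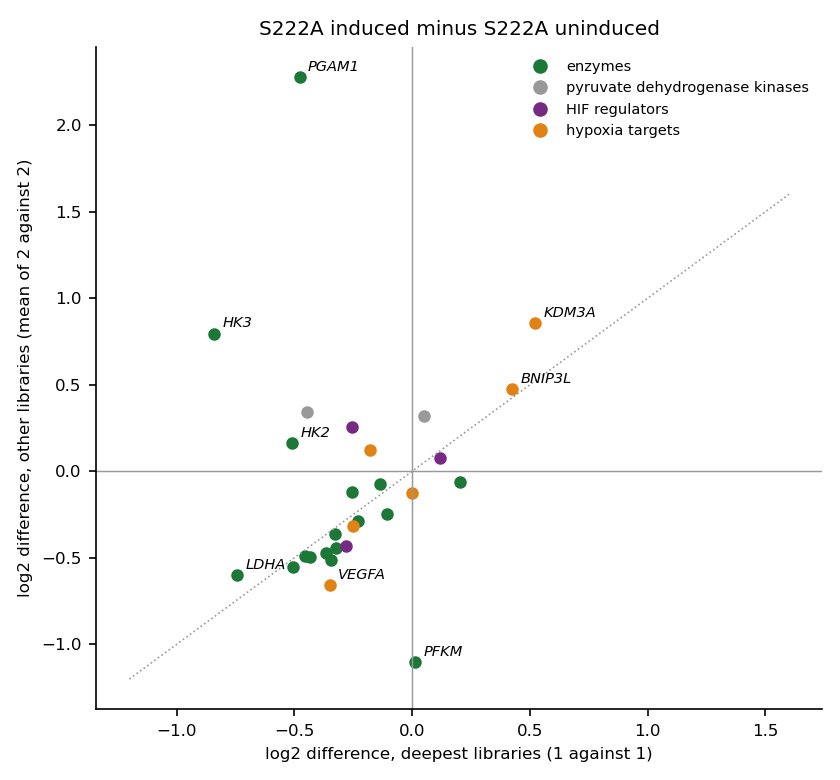
Log2 CPM difference on S222A induction for each tested member, within the deepest libraries (x axis, 1 library per group) and within the other libraries (y axis, 2 per group). LDHA lies at -0.74 and -0.60, and KDM3A at 0.52 and 0.86.

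Among related genes from fixed lists, SLC16A1 and TKT were called lower on S222A induction and between the induced lines. SLC16A1, the monocarboxylate transporter MCT1 that carries lactate across the membrane, had 64.8, 69.8 and 61.2 CPM in S222A induced and 105, 116 and 129 CPM in S222A uninduced libraries. For comparison, the WT line had 136, 161 and 157 CPM in induced and 150, 139 and 171 CPM in uninduced libraries. Every S222A induced library was below every other. It fell by 0.83 (SE 0.15, adjusted p = 0.00754) on S222A induction, and the call was kept in 12 of 12 fits that left out a library. Between the induced lines its log2 fold change was -1.21 (SE 0.15, adjusted p = 0.000488), also kept in 12 of 12. The difference of induction effects was -0.81 (adjusted p = 0.335). SLC16A3 of the same list had 64.4, 54.6 and 57.7 CPM in S222A induced and 94.4, 77.6 and 104 CPM in S222A uninduced libraries. WT libraries had 54.1, 29.1 and 46.6 CPM in induced and 48.4, 69 and 45.3 CPM in uninduced ones. It was lower on S222A induction without overlap (-0.64, SE 0.22, adjusted p = 0.127). In both states its S222A libraries lay above the WT ones, narrowly when induced. No comparison of SLC16A3 was called.

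TKT, transketolase of the pentose phosphate pathway, had 258, 289 and 336 CPM in S222A induced and 491, 417 and 462 CPM in S222A uninduced libraries. Levels in WT cells were 474, 503 and 492 CPM in induced and 496, 500 and 489 CPM in uninduced libraries. The S222A induced libraries lay below the rest. On S222A induction it fell by 0.63 (SE 0.14, adjusted p = 0.0236), a call kept in 8 of 12 fits that left out a library and lost without S222A induced replicate 1 (adjusted p = 0.118), S222A induced replicate 2 (adjusted p = 0.101), S222A uninduced replicate 1 (adjusted p = 0.0834) or S222A uninduced replicate 2 (adjusted p = 0.0532). It was also lost without the filter on low counts (adjusted p = 0.135), without the 2 shallowest libraries (0.0555) and with only the groups compared (0.0574). The log2 fold change of TKT between the induced lines was -0.73 (SE 0.14, adjusted p = 0.00941), a call lost without S222A induced replicate 1 (adjusted p = 0.0534) or S222A induced replicate 2 (adjusted p = 0.0505).

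The lists gave few other calls on S222A induction, where 1.66% of all genes were called lower and 2.8% higher; a single call makes up 5.88% to 20% of a list this short. Of 5 tested glucose and lactate transporters 1 was lower. Of 17 other hypoxia targets 1 was lower, TMEM45A, with 2.08 to 2.90 CPM in S222A induced and 5.65 to 16.4 CPM in S222A uninduced libraries (log2 fold change -1.93, SE 0.44, adjusted p = 0.0284, kept in 7 of 12 fits and lost without any S222A induced library, S222A uninduced replicates 2 or 3, or the 2 shallowest libraries, adjusted p = 0.0778). Of 7 pentose phosphate genes 1 was lower. None of 10 other genes of the HIF system, 11 of pyruvate oxidation and 6 of other glycolysis and gluconeogenesis steps was called. The uncalled glucose transporters SLC2A1 and SLC2A3 had log2 fold changes of -0.42 (adjusted p = 0.484) and 0.23 (adjusted p = 0.711). ARNT had 0.06, the HIF1A inhibitor HIF1AN -0.04 and MXI1, a MYC antagonist, -0.45. EPAS1 (HIF2A) had at most 8 counts and DDIT4 at most 22 in any library, and neither was tested.

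TFRC, PGM1 and DLAT, also from these lists, were called between the induced lines, where 3.73% of all genes were called higher and 2.61% lower. TFRC, the transferrin receptor, had 564, 601 and 532 CPM in S222A induced, 622, 618 and 614 CPM in S222A uninduced, 429, 371 and 374 CPM in WT induced and 467, 476 and 421 CPM in WT uninduced libraries. S222A and WT libraries of TFRC had no overlap, with a log2 fold change of 0.53 (SE 0.13, adjusted p = 0.0322) between the induced lines, and 0.44 (SE 0.13, adjusted p = 0.323) between the uninduced lines, which was not called. The TFRC call was kept in 5 of 12 fits and lost without any S222A induced library, S222A uninduced replicate 2, WT induced replicates 2 or 3, or WT uninduced replicate 1. PGM1, which links glucose 1-phosphate to glycolysis, was lower at -0.75 (SE 0.18, adjusted p = 0.0246), kept in 8 of 12 fits and lost without S222A induced replicates 2 or 3 or WT induced replicates 1 or 3. DLAT, a subunit of the pyruvate dehydrogenase complex, was lower at -0.70 (SE 0.15, adjusted p = 0.0165), kept in 9 of 12 fits and lost without S222A induced replicates 1 or 3 or WT induced replicate 3. Between the uninduced lines PGM1 and DLAT were also lower in S222A cells, without overlap (6.1% of all genes) or call. There PGM1 had 38.6, 30.4 and 32.9 CPM in S222A against 52, 51.2 and 60.1 CPM in WT libraries. DLAT had 66.5, 64.4 and 53.7 CPM against 76.2, 70.1 and 78 CPM. Over left-out libraries these log2 fold changes ran from -0.79 to -0.60 for PGM1 and from -0.33 to -0.19 for DLAT.

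MYC, a transcription factor that binds the E-box, had 81, 93.6 and 96.4 CPM in S222A induced and 231, 211 and 53.7 CPM in S222A uninduced libraries. In WT cells it had 279, 188 and 280 CPM in induced and 251, 337 and 284 CPM in uninduced libraries. S222A uninduced replicate 3 lay below the S222A induced libraries. On S222A induction the log2 fold change was -0.89 (adjusted p = 0.217), and it depended on single libraries: -1.29 (adjusted p = 0.00602) without that library, -0.58 (adjusted p = 0.504) without S222A uninduced replicate 1 and -0.69 (adjusted p = 0.476) without S222A uninduced replicate 2. Against WT induced cells the S222A induced value was -1.47 (SE 0.38, adjusted p = 0.0389), kept in 4 of 12 fits that left out a library. That call was lost without any S222A induced library, S222A uninduced replicate 2, WT induced replicates 1 or 3, WT uninduced replicates 1 or 3, or the deepest libraries together (adjusted p = 0.261). Its part in the enzyme values was not tested.

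Promoter windows of 250 bases before the start were found for 30 of the 34 members, and VHL, BNIP3L, VEGFA and NDRG1 were not matched. The core ACGTG or GCGTG, on either strand, was in 20 of 30 member windows (66.7%) and in 43.1% of 27305 promoter windows. It was in 12 of 20 enzyme windows and all 5 target windows. The E-box CACGTG, which contains ACGTG, was in 5 of 30 (16.7%) and in 6.49% of all windows. The letters are a description of the windows.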

How the data were processed

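The authors deposited 1 table of raw read counts per gene symbol for the 12 libraries, with no normalization. Per the submitters' processing notes, reads were handled on build hg19, and STAR 2.4, HTSeq 0.6.1 and DESeq2 are named without their roles. Neither the annotation nor the strand setting is given in the sources used here, so reads of overlapping or antisense genes cannot be told apart. The S222A columns carry no S222A in their names and were matched through the sample descriptions in the labels. Genes passing edgeR's filterByExpr (minimum count 10) numbered 11474 and held 99.5% of the counts. All 12 libraries were fitted with TMM factors, a mean per group and 8 residual degrees of freedom, using robust quasi-likelihood F tests (edgeR 4.0.16, R 4.3.3); the biological coefficient of variation was 24.8%. The SE is the log2 fold change over the square root of F. Log2 CPM used a prior count of 2. The fitting code was tested on simulated counts.

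Alternatives used DESeq2 1.42.0, limma 3.58.1 (voom), other scalings and filters, and left-out libraries. The members and all gene lists were chosen with earlier results of these data known. Named genes were the called members, the HIF regulators, the tested hypoxia targets, control-step enzymes, up to 4 called genes per list and some HIF and transport genes; PGK1 and LDHB were added after their values were seen, as were GPI and the genes named only for not overlapping, and the markers MPO, KIT and ITGAM. The smallest libraries set the precision of low genes. No hg19 genome was used, and promoter coordinates are of GRCh38.p14, independent of the counts.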

Additional observations from a re-analysis of the deposited data

How the results depend on the processing

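On S222A induction 2 members were called. The count was 1 with upper quartile factors, 0 without the filter on low counts, 1 without the deepest libraries, 0 without the 2 shallowest libraries (875710 and 930960 counts), 1 with only the groups compared, 4 with DESeq2 and 8 with a term for the deepest libraries. Leaving out 1 library gave 0 to 2. Between the induced lines 3 members were called, 5 with DESeq2 and 8 with the deepest-library term, and 1 to 5 when 1 library was left out. Over all genes DESeq2 called 7.07% on S222A induction and 8.82% between the induced lines, and that term 17.9% and 21.6%. The causes were not tested. Over all genes the calls on S222A induction numbered 511 (185 to 2052 over the alternatives), between the induced lines 727 (252 to 2480), on WT induction 1 (0 to 6), for the difference of induction effects 9 (0 to 147) and between the uninduced lines 45 (9 to 218).

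The labels do not say whether equal replicate numbers pair the libraries. The correlation of same-numbered deviations ran from -0.53 to 0.32, and 4 of 24 pairings were highest with their own number. The deepest library does not carry the same number in every group, so these correlations mix depth with pairing and cannot decide it. With a replicate block, 0 members were called on S222A induction and 2 between the induced lines, where ENO1 had an adjusted p of 0.116 (edgeR).

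The enzyme median ranged over left-out libraries from -0.47 to -0.23 on S222A induction, -0.28 to -0.0417 on WT induction, -0.36 to -0.0871 for their difference and -0.43 to 0.0159 between the induced lines, where it was -0.43 without the 2 shallowest libraries. The target median ranged from -0.13 to 0.14 on S222A induction, -0.25 to 0.0625 for the difference and -0.24 to 0.0134 between the uninduced lines, where it was 0.00586 without the 2 shallowest libraries. Low counts limit HK3, PFKM, PGAM1 and the 6 untested members.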
